A study of Danio rerio with 15 samples.

Results

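Zebrafish fin tissue collected 21 days post amputation (dpa) was compared with fin tissue collected 4 dpa, across all genes of a bulk RNA-seq table. The comparison used 6 of the 15 libraries of a time course at 0, 4, 7, 14 and 21 dpa, 3 libraries per time point. All fish were wild type (WT) and untreated apart from the amputation, per the labels, and each library was made from tissue pooled from 10 animals. The sample titles call the tissue the fin amputation plane, and each piece reached 1 bone segment proximal and distal of the cut. At 4 dpa it held early regenerate next to old stump, and at 21 dpa rebuilt fin next to old stump. The place of the growing tip relative to the piece was not measured here, and its part in the changes was not tested. The sample labels give 4 dpa for the early group and the series design text gives 3.5 dpa. It is called 4 dpa here. The age and sex of the fish and the fin used are not given in the sources used here.

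A zebrafish fin regrows from a blastema, a mass of dividing cells that forms under a specialised wound epidermis at the stump. In the first days the blastema divides and lays down a provisional matrix with actinotrichia, the stiff collagenous fibrils of the growing fin tip. Later, osteoblasts cover the new rays with bone while nerves, pigment cells and joints are restored. The series title concerns gradients of Erk, the kinase that Fgf receptors activate, and the comparison asks which functions separate rebuilt tissue from the early regenerate.

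The authors deposited TPM values, transcript abundances set per length and to a fixed total of 1e+06 in each library, for 14836 genes. Of these, 10234 genes reached 1 TPM in 3 or more of the 15 libraries once the rRNA gene zgc:158463 was dropped, and these were tested. Levels below are TPM after scaling each library by the median of its ratios to the mean library, called scaled TPM. Changes are log2 differences, 21 minus 4 dpa, of scaled TPM + 1, a scale that understates the change of genes near 0. A gene is called changed at a limma adjusted p (Benjamini-Hochberg over all 10234 genes) under 0.05, and each change is given with its standard error (SE).

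Several epidermal, bone and fin genes were present in all 6 libraries. The epithelial adhesion gene epcam had 1087, 877 and 997 scaled TPM at 21 dpa, against 731, 769 and 679 at 4 dpa. The type I collagen gene col1a1a had 254, 350 and 345 scaled TPM at 21 dpa, against 411, 364 and 569 at 4 dpa. The distal fin gene hoxa13a had between 14.1 and 20.2 scaled TPM in the 6 libraries, whereas the osteoblast gene sp7 had between 0.776 and 1.28. Both epcam and col1a1a were high at both times, and sp7 was near the filter at both. The appendage genes pitx1 and tbx4, also checked, were at or near 0, with highest values of 0.366 and 0.157 scaled TPM.

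The libraries differed in more than time. The dropped rRNA gene took 26.1, 67.0 and 31.0% of TPM in the 21 dpa libraries, against 22.9, 9.00 and 71.6% in the 4 dpa libraries. Relative depth outside that gene, read from the steps between low values with the mean library near 1, was 0.630, 0.186 and 0.432 at 21 dpa, against 1.17, 1.28 and 0.126 at 4 dpa. How sharply ratios of low values fell on steps also sorted the libraries into 2 sets. A difference in effective transcript lengths between the sets is inferred from these steps and was not measured. All 21 dpa libraries lay in one set with the 14 dpa libraries and 7 dpa replicate 2, and all 4 dpa libraries lay in the other with the 0 dpa libraries and 7 dpa replicates 1 and 3. The labels name no batch, and the library set and the time cannot be told apart between 21 and 4 dpa except through the 7 dpa libraries. Rank correlations between libraries over the tested genes were 0.923 to 0.946 within 21 dpa, 0.908 to 0.984 within 4 dpa and 0.829 to 0.890 between them.

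Of the 10234 genes, 2249 (21.98%) were called changed. They divided into 1046 genes (10.22%) that rose and 1203 (11.75%) that fell at 21 dpa. The change reached at least 1 on the log2 scale in 361 of the higher and 569 of the lower genes. The 3 libraries of one time did not overlap the 3 of the other in 1019 of the higher and 1184 of the lower genes. Among all tested genes the shares were 18.00% and 19.18% in these directions, and 37.18% in either. The same values gave the calls, so this is a description and no separate support. The median change over all tested genes was -0.01. The balance between the directions rested on the scaling. On TPM as deposited, with a median change of -0.34, 136 genes were called higher and 857 lower. With the rRNA gene dropped and each library rescaled to the TPM total, with a median of -0.31, 273 were called higher and 1699 lower. With the library set as a covariate, 260 genes were called, 101 higher and 159 lower, and 2240 of the 2249 genes kept the sign of their change. List counts below in an alternative setting stand against the counts over all genes in that setting, not against 10.22% and 11.75%. List medians on TPM as deposited stand against -0.34. Of 139 called genes named in the text, 51 kept their call in every one of the 20 alternative settings that tested them. In all of these but the library set covariate 91 kept it, and none changed sign. Some of these genes, such as cdk1, were tested in 19, since they did not reach a mean scaled TPM of 5. Of the 70 named rises, 36 lost their call on TPM as deposited and 21 on the rescaled TPM, against 4 and 1 of the 69 named falls. The plot of change by level shows the genes that changed most.

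**Figure D1:**
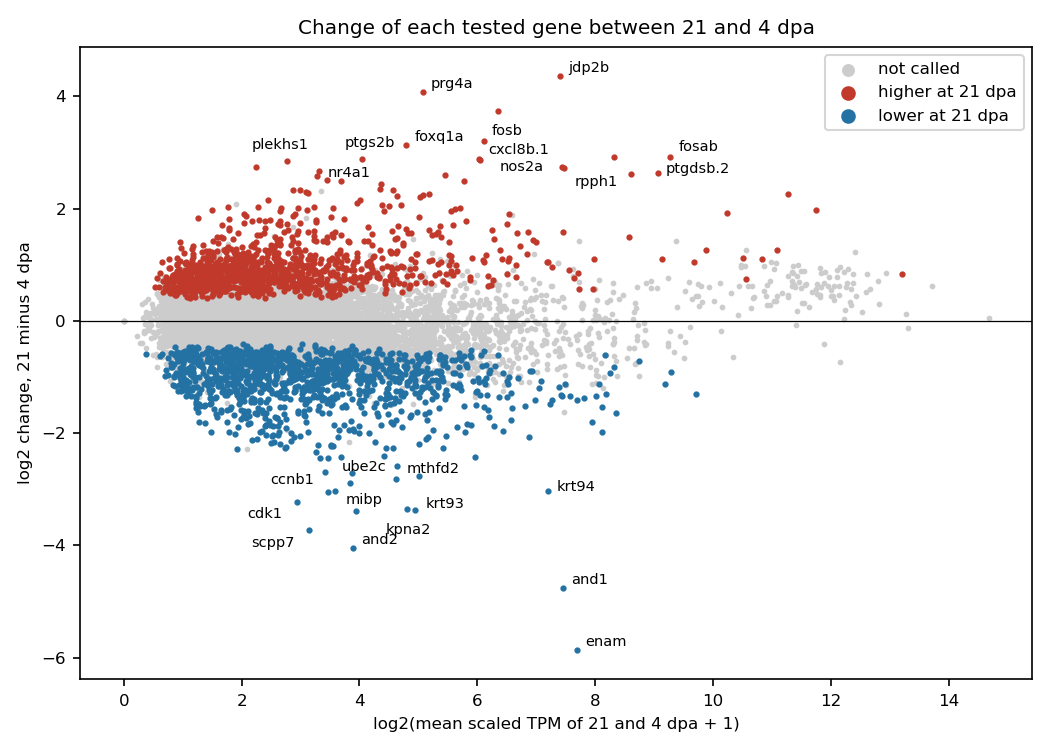
Log2 change of each of the 10234 tested genes (21 minus 4 dpa, vertical axis) against its mean level (log2 of mean scaled TPM + 1, horizontal axis), with called genes in red where higher and blue where lower at 21 dpa. The largest named rise is jdp2b at 4.37 and the largest fall is enam at -5.87, while the most abundant transcripts on the right are mostly not called.

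Genes of cell division fell at 21 dpa. Of 41 tested genes of DNA replication and S phase 38 fell at 21 dpa, with a median change of -1.27 against -0.01 for all genes. Of 31 tested genes of mitosis and the kinetochore 29 fell, with a median of -1.52. Across all tested genes 11.75% fell. Of 43 mitosis genes with deposited values, 31 passed the filter. The 3 libraries of 4 dpa alone can meet that filter, which favours falls among genes that are low at other times. How many members entered in that way was not counted.

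The kinase gene cdk1, which drives entry into mitosis, was listed at 1.02, 0 and 0.583 scaled TPM at 21 dpa, against 12.8, 15.6 and 10.3 at 4 dpa. Its partner cyclin ccnb1 had 1.67, 0.687 and 1.70 scaled TPM at 21 dpa, against 19.98, 24.2 and 12.2 at 4 dpa. Neither gene's groups overlapped, and the changes were -3.22 (SE 0.25, limma adjusted p = 1.31e-06) for cdk1 and -3.06 (SE 0.23, limma adjusted p = 1.31e-06) for ccnb1. The ubiquitin-conjugating enzyme gene ube2c, which serves the destruction of cyclins at mitotic exit, fell by 2.89, and the spindle checkpoint gene mad2l1 fell by 2.70. Proliferation markers at lower levels fell too. The marker mki67 had 0.817, 0.725 and 0.876 scaled TPM at 21 dpa, against 5.88, 6.18 and 8.37 at 4 dpa.

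Among replication genes the largest fall was in rrm2, a subunit of the reductase that makes deoxyribonucleotides, at -2.69 (SE 0.20, limma adjusted p = 1.31e-06). It had 2.89, 1.63 and 1.28 scaled TPM at 21 dpa, against 17.5, 18.7 and 16.2 at 4 dpa. The nucleotide enzyme genes dut and tk1 fell by 2.41 and 2.05, and the replicative helicase subunit gene mcm5 fell by 2.19. The clamp gene pcna stood higher than these at both times, with 27.12, 18.9 and 23.3 scaled TPM at 21 dpa, against 57.6, 67.5 and 60.8 at 4 dpa. The genes that did not pass were gins1, gins3 and rfc1 for replication, and ccnb3 and cdc25b for mitosis.

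Both lists were already low at 7 dpa. At 0, 4, 7, 14 and 21 dpa the mean log2(scaled TPM + 1) of the mitosis list was 0.82, 2.35, 0.87, 0.68 and 0.70. The replication list had 1.74, 3.04, 2.07, 1.66 and 1.74 at the same times. The 21 dpa libraries spanned 0.58 to 0.83 for mitosis and 1.71 to 1.77 for replication, against 2.28 to 2.45 and 2.99 to 3.09 in the 4 dpa libraries. Leaving out any 1 library left 35 to 38 replication genes and 29 or 30 mitosis genes lower. With the library set as a covariate, 16 replication genes and 23 mitosis genes were lower, with medians of -1.32 and -1.52. Over all 10234 genes 159 were lower there. In bulk tissue, fewer cells of a type and less RNA per cell cannot be told apart.

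Outside these lists, the importin gene kpna2, which carries proteins into the nucleus, had one of the largest falls. It had 4.02, 4.02 and 3.82 scaled TPM at 21 dpa, against 43.2, 57.7 and 48.9 at 4 dpa, a change of -3.35 (SE 0.19, limma adjusted p = 3.08e-07). The mitochondrial folate enzyme gene mthfd2 had 4.43, 4.48 and 6.57 scaled TPM at 21 dpa, against 47.2, 39.6 and 39.9 at 4 dpa. Its groups lay far apart, at a change of -2.82, but its means of 32.6 at 0 dpa and 53.2 at 7 dpa were near the 4 dpa level, so it was low at 14 and 21 dpa rather than high at 4 dpa. The gene mibp fell by 3.04.

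**Figure D2:**
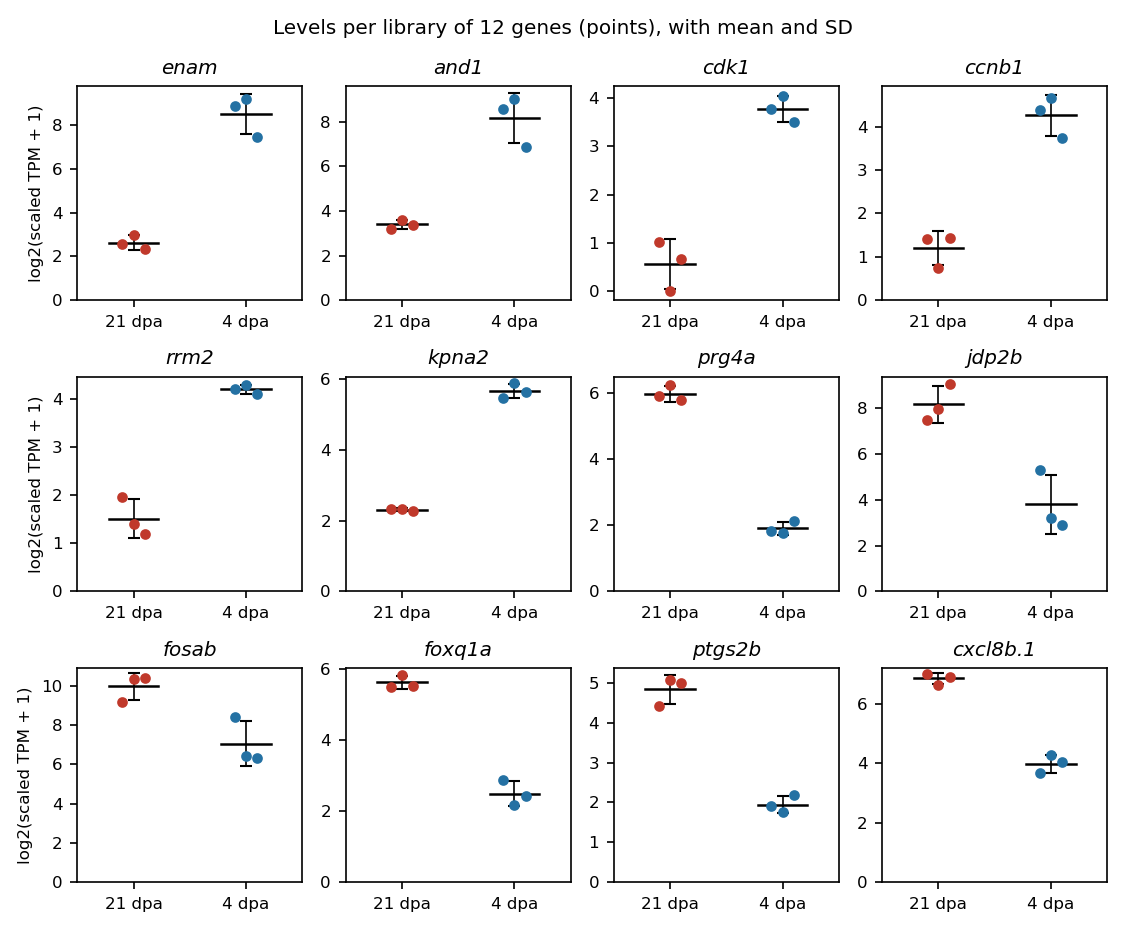
Level of 12 genes in each library as log2(scaled TPM + 1), 21 dpa in red left of 4 dpa in blue, with points for libraries, a horizontal bar for the mean and an error bar for the SD (n = 3). In each panel the groups do not overlap; the spread is widest in jdp2b and fosab, where 4 dpa replicate 1 stands above the other 4 dpa libraries.

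The early matrix held several of the largest falls. Of 24 tested genes of actinotrichia and the blastema matrix 12 fell and 1 rose, with a median change of -0.75. Across all tested genes 11.75% fell and 10.22% rose. The actinodin genes and1 and and2 encode structural proteins of actinotrichia. Transcripts of and1 had 8.28, 11.2 and 9.33 scaled TPM at 21 dpa, against 380, 519 and 116 at 4 dpa. Transcripts of and2 had 0.543, 0.504 and 0.312 scaled TPM at 21 dpa, against 27.09, 44.5 and 9.79 at 4 dpa. The 4 dpa libraries varied several-fold, with replicate 3 lowest for both genes, yet it stayed above all 21 dpa libraries in both. The changes were -4.76 (SE 0.41, limma adjusted p = 3.88e-06) for and1 and -4.05 (SE 0.36, limma adjusted p = 4.56e-06) for and2. The actinodins are related in sequence, and how shared reads were divided is not given in the sources used here.

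Other early matrix genes fell less. The microfibril gene fbn2b fell by 1.88, the tenascin gene tnc by 1.87 and the fibronectin gene fn1b by 1.86. The hyaluronan synthase gene has1 fell by 1.07 while has2 rose by 0.77, a rise lost on both TPM scales without median-of-ratios scaling and with the library set as a covariate. Versican genes vcana and vcanb, the periostin gene postnb and sparc did not pass the test. The list's mean log2(scaled TPM + 1) at 0, 4, 7, 14 and 21 dpa was 2.77, 4.21, 3.58, 3.34 and 3.34, with no test of 21 against 0 dpa. With the library set as a covariate 5 of its members fell, against 159 of all 10234 genes, with a median of -0.96.

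The largest fall of any tested gene was in enam, the zebrafish enamelin gene of the secretory calcium-binding phosphoprotein group, whose mammalian counterpart is an enamel matrix protein. It had 4.84, 7.00 and 4.05 scaled TPM at 21 dpa, against 468, 571 and 175 at 4 dpa, a change of -5.87 (SE 0.38, limma adjusted p = 5.23e-07). The related gene scpp7 was listed at 0, 0.544 and 0 scaled TPM at 21 dpa, against 21.2, 17.7 and 7.74 at 4 dpa, and fell by 3.73. Mean levels of enam at 0, 7 and 14 dpa were 3.89, 19.7 and 4.44 scaled TPM, so the mean at 4 dpa was the highest of the 5 times. Of 6 tested members of the group, enam and scpp7 were the 2 called, against 21.98% of all tested genes.

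Bone genes did not move together. Of 26 tested genes of osteoblast differentiation and bone matrix 3 rose and 2 fell, against 10.22% and 11.75% of all tested genes, with a median change of 0.11. The osteocalcin gene bglap, a product of mature osteoblasts, had 7070, 3933 and 5544 scaled TPM at 21 dpa, against 1426, 1816 and 969 at 4 dpa. Its groups were well apart, at a change of 1.98 (SE 0.53, limma adjusted p = 0.0149), but the call was lost without 21 dpa replicate 1 and without 4 dpa replicate 3. The cartilage and skeletal progenitor transcription factor gene sox9a rose by 1.95, with 4.99, 11.4 and 10.9 scaled TPM at 21 dpa, against 1.36, 1.71 and 1.39 at 4 dpa. The bone morphogenetic ligand gene bmp2a rose as well.

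The genes that fell were col10a1a and phex. The type X collagen gene col10a1a had 160, 131 and 89.0 scaled TPM at 21 dpa, against 335, 326 and 304 at 4 dpa, a change of -1.38. The phosphate-regulating endopeptidase gene phex fell by 1.41. The osteopontin gene spp1 had 71.0, 87.1 and 127 scaled TPM at 21 dpa, against 163, 144 and 47.2 at 4 dpa, groups that overlapped. The list's mean log2(scaled TPM + 1) at 0, 4, 7, 14 and 21 dpa was 4.01, 4.51, 4.72, 4.64 and 4.65. With the library set as a covariate no osteoblast gene was called by limma, 4 were higher and 2 lower at an unadjusted p under 0.05, and the median was -0.10.

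Of 15 tested genes of osteoclasts and bone resorption, acp5a fell while snx10a and csf1a rose, against 11.75% and 10.22% of all tested genes. The osteoclast acid phosphatase gene acp5a had 5.69, 3.26 and 2.93 scaled TPM at 21 dpa, against 67.2, 59.6 and 4.90 at 4 dpa. The groups overlapped because 4 dpa replicate 3 was low, and the call was lost without 4 dpa replicate 1 or without 4 dpa replicate 2.

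The lubricin gene prg4a, which encodes a joint and surface lubricant proteoglycan, had the largest rise after jdp2b. It had 58.7, 75.6 and 53.8 scaled TPM at 21 dpa, against 2.55, 2.37 and 3.41 at 4 dpa, a change of 4.07 (SE 0.27, limma adjusted p = 6.33e-07). The groups were far apart with little spread in either. Its mean scaled TPM at 0, 4, 7, 14 and 21 dpa was 83.6, 2.78, 6.83, 32.4 and 62.7, so 4 dpa was the low point. The small leucine-rich proteoglycan genes ogna and aspn fell by 1.43 and 0.89, and chad rose by 0.56. The call of aspn was lost without 21 dpa replicate 2, 4 dpa replicate 1 or 4 dpa replicate 2, and that of chad without 21 dpa replicate 3 or 4 dpa replicate 3. Of 21 tested joint and fibroblast markers 3 rose, among them prg4a and acta2, and 3 fell, among them and1. Across all tested genes 10.22% rose and 11.75% fell, and the median change of these markers was 0.11. The smooth muscle actin gene acta2 rose by 1.53, with 6.24, 6.64 and 6.16 scaled TPM at 21 dpa, against 1.57, 1.70 and 1.35 at 4 dpa.

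Genes for making, folding and modifying secreted proteins were often lower at 21 dpa. Of 35 tested genes of protein folding and secretion in the endoplasmic reticulum (ER) 16 fell, with a median change of -0.61. Of 17 aminoacyl-tRNA synthetase genes 9 fell and 1 rose, with a median of -0.68. Of 22 genes of collagen modification and crosslinking 10 fell and 1 rose, with a median of -0.57. The share that fell among all tested genes was 11.75%.

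The ER chaperone gene hspa5 had 8.77, 13.3 and 14.1 scaled TPM at 21 dpa, against 30.5, 27.5 and 34.9 at 4 dpa, a change of -1.31 (SE 0.24, limma adjusted p = 0.00162). The calreticulin gene calr3b fell by 1.94, the co-chaperone gene dnajb11 by 1.69 and hsp90b1 by 1.31. For these chaperones the groups did not overlap. The procollagen lysyl hydroxylase gene plod2, whose product prepares collagen for crosslinking, fell by 1.399, and the procollagen proteinase enhancer genes pcolce2b and pcolceb moved in opposite directions, by -1.35 and 1.21. The change of pcolceb was lost on both TPM scales without median-of-ratios scaling. The tyrosyl-tRNA synthetase gene yars1 fell by 1.70 and the threonyl-tRNA synthetase gene tars1 by 1.34.

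The calls in these 3 lists dropped with the library set as a covariate, as they did over all genes, while the medians stayed negative. Collagen modification was also sensitive to single libraries. Collagen modification had 5 to 11 genes lower when 1 library was left out, with 6 without 21 dpa replicate 1 and 5 without 21 dpa replicate 2, without 4 dpa replicate 1 or without 4 dpa replicate 2. With the library set as a covariate 4 ER genes, 2 collagen modification genes and 0 synthetase genes were lower by limma, against 159 of all 10234 genes. The medians there were -0.53, -0.68 and -0.85. At an unadjusted p under 0.05, 11 synthetase genes were lower there.

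Many proteasome genes and some splicing genes were lower as well. Of 40 tested proteasome subunit genes 22 fell, against 11.75% of all tested genes, with a median change of -1.03. The 21 dpa libraries lay below the 4 dpa libraries in 29, against 19.18% of all tested genes. The lid subunit gene psmd11b had 3.37, 2.28 and 3.82 scaled TPM at 21 dpa, against 11.2, 11.0 and 12.2 at 4 dpa, a change of -1.60 (SE 0.18, limma adjusted p = 2.68e-05). The core subunit gene psma3 had 86.7, 49.5 and 66.3 scaled TPM at 21 dpa, against 195, 238 and 120 at 4 dpa. It fell by 1.42 with wider spread, and its call was lost without 21 dpa replicate 2 or 3 and without 4 dpa replicate 1 or 2. The count of lower subunit genes was 10 without 4 dpa replicate 1, 11 without 4 dpa replicate 2, 11 without 21 dpa replicate 2 and 12 without 21 dpa replicate 3. With the library set as a covariate it was 2, against 159 of all 10234 genes, and the median was -0.51.

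Of 55 splicing factor genes 16 fell and 2 rose, against 11.75% and 10.22% of all tested genes, with a median of -0.47. The Sm protein genes snrpg, snrpd1 and snrpd3, parts of the core of spliceosomal particles, fell by 1.77, 1.71 and 1.62, and the call of snrpd3 was lost without 21 dpa replicate 2, 4 dpa replicate 1 or 4 dpa replicate 2. The count of lower genes was 10 without 4 dpa replicate 1 or without 4 dpa replicate 2. No splicing gene was called by limma with the library set as a covariate, where the median was -0.46 and 1 gene was higher and 14 lower at an unadjusted p under 0.05. Of 41 ribosome biogenesis genes 7 fell and 2 rose, against the same 11.75% and 10.22%. The snoRNP protein genes nop58 and dkc1 fell by 1.53 and 1.42, and the ribosome assembly GTPase gene gtpbp4 rose by 1.01, a rise lost on both TPM scales without median-of-ratios scaling.

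Ribosomal protein genes had a positive median but few calls. Of 86 genes matched by symbol, which include the S6 kinase genes rps6ka1, rps6ka4, rps6kal and rps6kc1, 6 rose, against 10.22% of all tested genes, and the median change was 0.63. The 21 dpa libraries lay above the 4 dpa libraries in 46, against 18.00% of all tested genes. The gene rps27.2 had the largest change, 2.62, with 799, 906 and 325 scaled TPM at 21 dpa, against 96.8, 122.8 and 82.6 at 4 dpa, and it has a close paralog. The large subunit gene rpl6 had 2379, 1790 and 1801 scaled TPM at 21 dpa, against 956, 1098 and 718 at 4 dpa, a change of 1.11 (SE 0.29, limma adjusted p = 0.0127), which was lost without 21 dpa replicate 1. The count of higher genes was 1 without 21 dpa replicate 1, 3 without 21 dpa replicate 2, and 2 without 4 dpa replicate 1 or 3. It was 25 with each library rescaled to the TPM total and 0 by limma with the library set as a covariate, where 12 were higher at an unadjusted p under 0.05. Over all tested genes 273 were higher with that rescaling and 101 with the covariate. The median was 0.03 after quantile normalization, which forces the same distribution on all libraries.

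**Figure D3:**
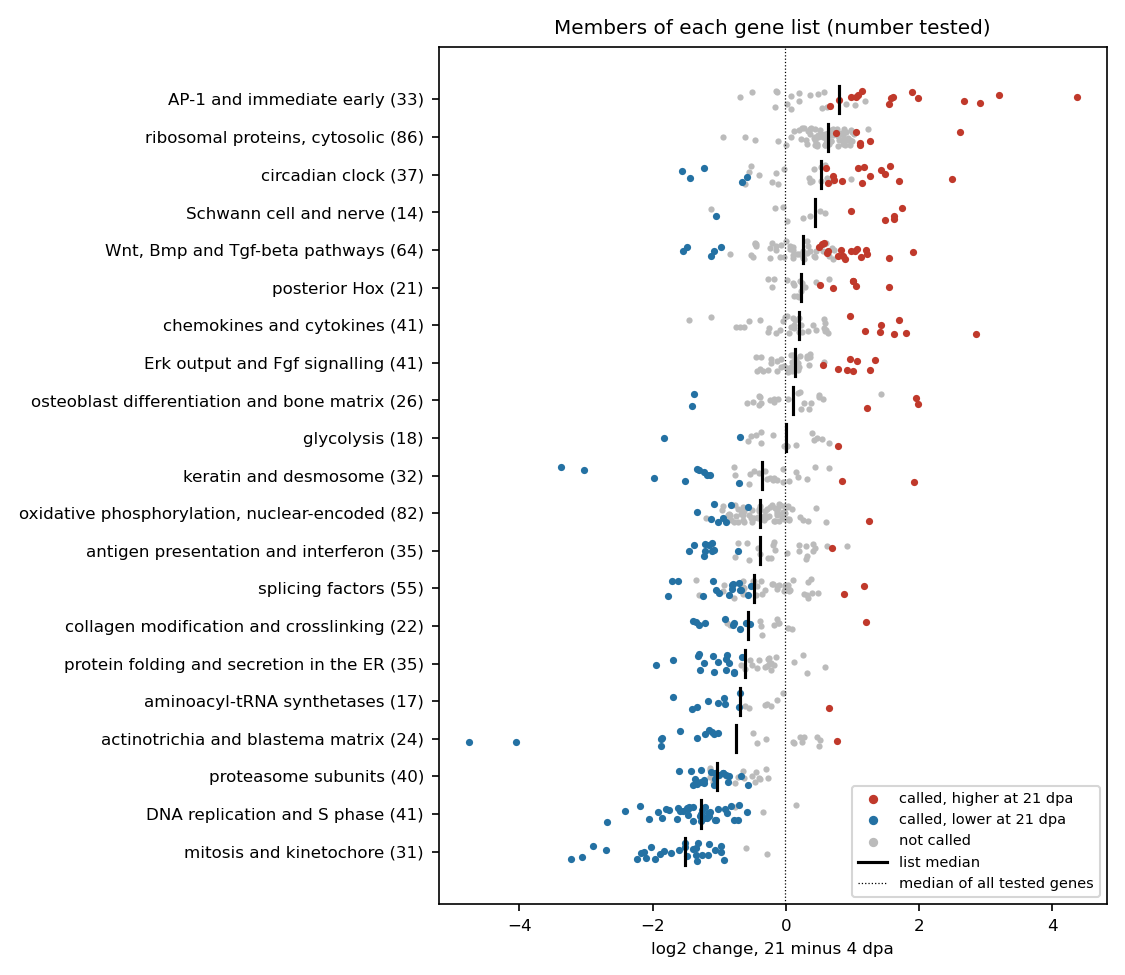
Log2 change, 21 minus 4 dpa, of every tested member of 21 gene lists, with the number tested in brackets, called genes in red where higher and blue where lower at 21 dpa, and a black bar for the list's median. The division lists sit lowest, at medians of -1.52 and -1.27, and the AP-1 and immediate early list highest, at 0.80.

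Immediate early genes rose at 21 dpa. These genes, among them those of the AP-1 transcription factors, are known for fast and brief induction by growth factors, stress and injury. Of 33 tested members 15 rose, with a median change of 0.80, against 10.22% of all tested genes that rose. The largest rise of any tested gene was in jdp2b, which encodes a Jun-dimerising protein. It had 179, 252 and 529 scaled TPM at 21 dpa, against 38.3, 8.21 and 6.58 at 4 dpa, a change of 4.37 (SE 0.59, limma adjusted p = 0.000159).

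The fos genes encode subunits of AP-1. The gene fosb had 38.9, 174 and 161 scaled TPM at 21 dpa, against 18.4, 6.43 and 9.15 at 4 dpa, and rose by 3.198. The gene fosab had 582, 1292 and 1351 scaled TPM at 21 dpa, against 333, 86.4 and 78.8 at 4 dpa, and rose by 2.92. In jdp2b, fosb and fosab 21 dpa replicate 1 was the lowest of its group and 4 dpa replicate 1 the highest of its group. The orphan nuclear receptor gene nr4a1 rose by 2.67, klf2b by 1.99 and ccn1 by 1.55. The AP-1 subunit genes jun, jund and junba did not pass the test, with changes of 0.20, 0.02 and 0.37.

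The list's mean was highest at 21 dpa. On the log2(scaled TPM + 1) scale it stood at 4.13, 4.06, 4.26, 3.97 and 5.04 for 0, 4, 7, 14 and 21 dpa. The mean scaled TPM of jdp2b over the same times was 13.0, 17.7, 19.3, 22.5 and 320. The 21 dpa libraries spanned list means of 4.56 to 5.38, against 3.81 to 4.47 in the 4 dpa libraries. The list had 12 to 17 members higher when 1 library was left out, 7 on TPM as deposited, 9 with each library rescaled to the TPM total and 3 with the library set as a covariate, where the median was 0.61. Over all tested genes 136 were higher on TPM as deposited, 273 on the rescaled TPM and 101 with the covariate. The calls of fosb and fosab were lost with that covariate, and that of jdp2b was kept. How long tissue was held before extraction is not given in the sources used here, and its part was not tested.

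**Figure D4:**
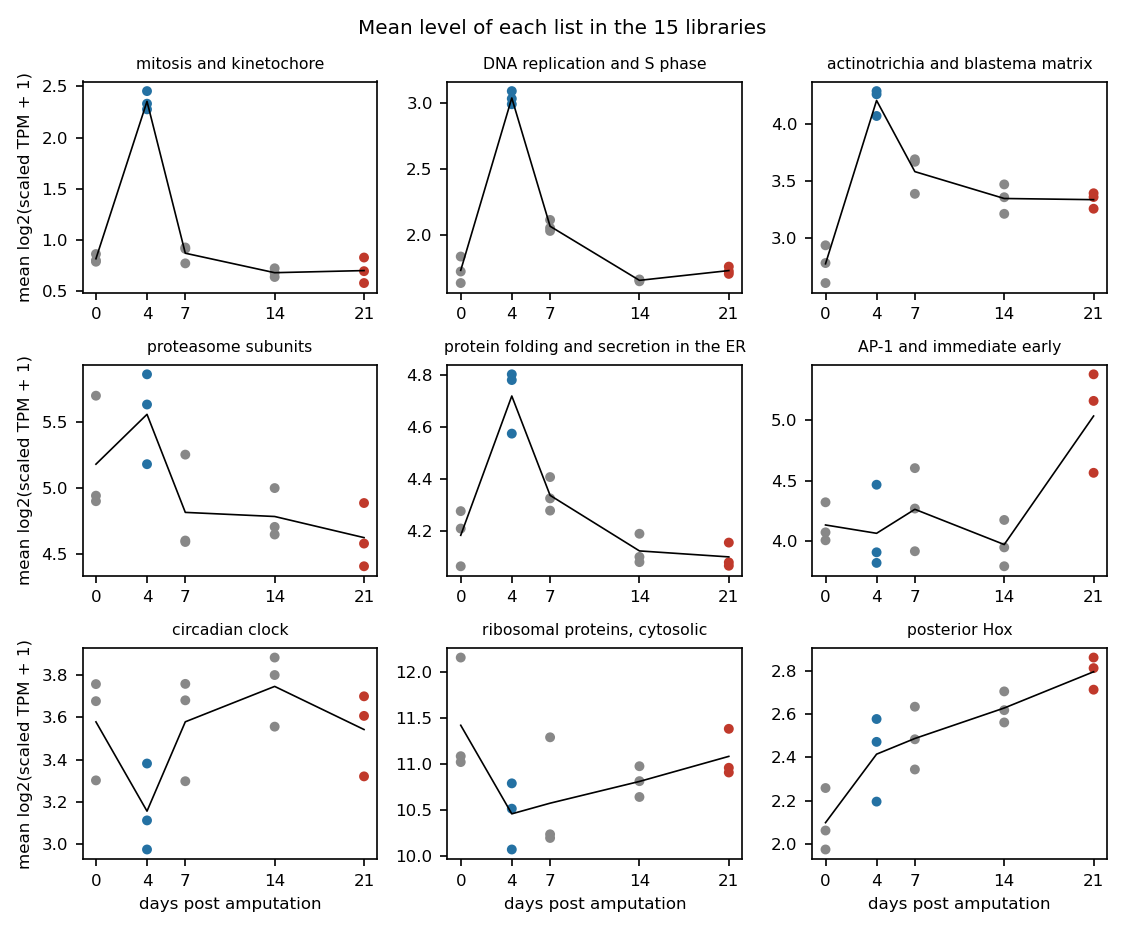
Mean log2(scaled TPM + 1) of 9 gene lists in the 15 libraries against days post amputation, with 21 dpa in red, 4 dpa in blue, other times in grey and a line through the group means. The division lists peak at 4 dpa, the AP-1 and immediate early list is high at 21 dpa, at 5.04, and the posterior Hox list has its highest mean, 2.80, at 21 dpa.

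The 12 largest named rises included a chemokine gene and genes of nitric oxide and prostaglandin synthesis. The chemokine gene cxcl8b.1, whose product attracts neutrophils, had 128, 99.6 and 119 scaled TPM at 21 dpa, against 11.8, 18.3 and 15.5 at 4 dpa, a change of 2.86 (SE 0.31, limma adjusted p = 2.36e-05). The inducible nitric oxide synthase gene nos2a had 275, 345 and 274 scaled TPM at 21 dpa, against 31.2, 35.09 and 75.2 at 4 dpa, and rose by 2.74. The cyclooxygenase gene ptgs2b had 20.2, 32.7 and 31.0 scaled TPM at 21 dpa, against 2.74, 2.38 and 3.55 at 4 dpa, and rose by 2.88. The groups of these genes were far apart, but the call of nos2a was lost with the library set as a covariate. Means of cxcl8b.1 at 0, 7 and 14 dpa were 9.14, 31.0 and 53.5, whereas those of ptgs2b stayed between 2.05 and 3.14 at these times.

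The prostaglandin D synthase gene ptgdsb.2 had 1239, 679 and 851 scaled TPM at 21 dpa, against 147, 143 and 138 at 4 dpa, and rose by 2.64. Its mean at 0 dpa was 1340, so 4 dpa was the low point. The gene has a close neighbour, ptgdsb.1, and the division of reads between them is uncertain. Of 41 tested chemokine and cytokine genes 8 rose, against 10.22% of all tested genes, with a median of 0.20. The interleukin receptor gene il13ra1 rose by 1.70, the chemokine genes ccl20a.3 and ccl20b by 1.81 and 1.63, and the receptor genes cxcr4a and ackr3b by 1.43 and 1.42. The call of ccl20a.3 was lost without 21 dpa replicate 1 or 4 dpa replicate 3, and that of ccl20b without 21 dpa replicate 1 or 3 and without 4 dpa replicate 1 or 2. Leaving out 1 library left 6 to 8 genes higher, TPM as deposited 2, where the median turned to -0.18 beside a median of -0.34 for all genes, and the library set as a covariate 2.

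Summed macrophage and neutrophil markers overlapped between the times, whereas summed lymphocyte markers stood higher at 21 dpa without overlap. The summed level of 19 macrophage markers was 341 to 688 scaled TPM in the 21 dpa libraries, against 295 to 960 in the 4 dpa libraries. None of the 19 tested was called by limma, while 11.75% of all tested genes fell, and 1 was lower at an unadjusted p under 0.05. Without 4 dpa replicate 3, 4 of them were lower, against 1244 of all 10234 genes. The macrophage gene mpeg1.1 had 18.7, 15.3 and 17.1 scaled TPM at 21 dpa, against 18.1, 30.0 and 8.02 at 4 dpa. The summed neutrophil markers were 285 to 567 scaled TPM at 21 dpa, against 343 to 502 at 4 dpa. Among them 1 of 15 tested, pnp5a, was lower, against 11.75% of all tested genes. Its call was lost without 21 dpa replicate 1 or 2 and without 4 dpa replicate 1 or 3. The summed T and B lymphocyte markers were 59.6 to 66.5 scaled TPM at 21 dpa, against 35.0 to 51.5 at 4 dpa. Of 13 tested, ccr7 and runx3 rose, against 10.22% of all tested genes. Both calls were lost on both TPM scales without median-of-ratios scaling and with the library set as a covariate. That of ccr7 was also lost without both 4 dpa replicate 3 and 21 dpa replicate 2. The 21 dpa libraries lay above the 4 dpa libraries in 6 of the 13, against 18.00% of all tested genes. The part of these cells in the chemokine rises was not tested.

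Some interferon-linked genes fell. Of 35 tested genes of antigen presentation and interferon 10 fell and 1 rose, with a median change of -0.39. Across all tested genes 11.75% fell and 10.22% rose. The guanylate-binding protein gene gbp1 fell by 1.45, and the antiviral genes mxe and irf7 by 1.38 and 1.23. The gene irf7 had 7.33, 8.37 and 9.71 scaled TPM at 21 dpa, against 18.5, 19.02 and 26.4 at 4 dpa. Its mean at 0 dpa was 30.9, above both. Members of the mx and MHC families are close in sequence, and their counts are uncertain. Under the library set covariate 2 genes were lower, against 159 of all 10234 genes, and the median was -0.04.

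Clock genes were called in both directions, more often higher. Of 37 tested 14 rose and 5 fell, against 10.22% and 11.75% of all tested genes, with a median change of 0.53. The share that fell was close to that of all tested genes. Among repressor genes bhlhe40 rose by 2.499, nr1d1 by 1.57, cry2 by 1.497 and per1b by 1.18, but nr1d2a fell by 1.44. The output factor gene hlfa rose by 1.70. Among activator genes npas2 fell by 1.56 and arntl1a by 0.66, with the arntl1a call lost without 21 dpa replicate 2 or 4 dpa replicate 2. The gene bhlhe40 had 93.8, 107 and 76.6 scaled TPM at 21 dpa, against 14.9, 13.9 and 17.5 at 4 dpa. The nuclear receptor gene nr1d1 had 29.6, 39.8 and 56.2 scaled TPM at 21 dpa, against 12.0, 11.66 and 15.6 at 4 dpa. Neither gene's groups overlapped. The hour of collection is not given in the sources used here, and its part was not tested. On TPM as deposited 1 clock gene rose and 5 fell, 9 rose without both 4 dpa replicate 3 and 21 dpa replicate 2, and with the library set as a covariate bhlhe40 alone was called.

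The Erk and Fgf genes that were called all rose. Of 41 tested genes of Erk output and Fgf signalling 8 rose, against 10.22% of all tested genes, and the median change was 0.13. The phosphatase genes dusp1 and dusp2, which switch off mitogen-activated protein kinases, rose by 1.34 and 1.27, and the call of dusp1 was lost without 21 dpa replicate 3 or 4 dpa replicate 2. The Fgf target genes etv5b and spry2 rose by 1.00 and 0.96, and the receptor gene fgfr4 by 0.93. The gene etv5b had 5.81, 7.301 and 9.07 scaled TPM at 21 dpa, against 3.84, 3.44 and 2.28 at 4 dpa. The related targets etv4, etv5a and spry1 and the ligand genes fgf10a and fgf24 did not pass. On TPM as deposited 0 of the 41 were called by limma, and 2 were higher and 2 lower at an unadjusted p under 0.05. The median there was -0.19, beside -0.34 for all genes. Under the library set covariate 0 were called by limma, 6 were higher at an unadjusted p under 0.05, and the median was -0.06.

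Wnt, Bmp and Tgf-beta pathway genes included more rises. Of 64 tested 17 rose and 5 fell, against 10.22% and 11.75% of all tested genes, with a median of 0.27. The ligand gene wnt7aa had 10.4, 8.70 and 13.5 scaled TPM at 21 dpa, against 1.85, 1.56 and 3.201 at 4 dpa, a change of 1.91 (SE 0.25, limma adjusted p = 0.000118). The secreted Wnt inhibitor gene wif1 rose by 1.55, the ligand genes bmp2a and wnt11 by 1.23 and 0.98, and the dickkopf-related gene dkk3b fell by 1.54, a call lost without 21 dpa replicate 2, 4 dpa replicate 1 or 4 dpa replicate 2. The activin subunit gene inhbaa, known as an early regenerate signal, fell by 1.12. The list's median was -0.08 on TPM as deposited, beside -0.34 for all genes, with 1 member higher and 6 lower. No member was called by limma with the library set as a covariate, where 11 were higher and 4 lower at an unadjusted p under 0.05. With 1 library left out 11 to 14 members were higher, the fewest without 21 dpa replicate 2. The lower members numbered 3 without 21 dpa replicate 1 or 2 and 2 without 4 dpa replicate 1 or 2.

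Transcription factors of the blastema showed no common direction. Of 34 tested blastema factors and signals 7 fell and 2 rose, against 11.75% and 10.22% of all tested genes, with a median of 0.13. On TPM as deposited the median was -0.14, beside -0.34 for all genes. The lower count was 4 without 21 dpa replicate 1 or 2 and without 4 dpa replicate 1 or 2. The leptin gene lepb, known as a marker of zebrafish regeneration, had 2.49, 1.22 and 1.69 scaled TPM at 21 dpa, against 16.4, 15.6 and 4.03 at 4 dpa, and fell by 2.04. The homeobox gene msx2b rose by 1.51 and twist1a by 1.36, whereas msx1b did not pass and had 28.4, 24.1 and 28.3 scaled TPM at 21 dpa, against 26.0, 26.6 and 15.2 at 4 dpa.

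Hox genes of the posterior groups, which pattern distal appendages, were called in the higher direction in this scaling. Of 21 tested 6 rose, against 10.22% of all tested genes, with a median of 0.23. The gene hoxc11a had 10.9, 10.18 and 9.97 scaled TPM at 21 dpa, against 2.196, 2.66 and 4.03 at 4 dpa, a change of 1.54 (SE 0.17, limma adjusted p = 2.72e-05). The gene hoxc12a rose by 1.05, and its mean scaled TPM at 0, 4, 7, 14 and 21 dpa was 33.3, 44.0, 70.5, 124 and 92.4. Of the 6 genes 5 belong to the hoxc group. The rises were not limited to the posterior groups, since more anterior hoxa and hoxc genes were called higher as well. The share of anterior genes that rose was not counted. On both TPM scales without median-of-ratios scaling, and with the library set as a covariate, 1 gene of the posterior list was called higher. The list's median was -0.13 on TPM as deposited, beside -0.34 for all genes.

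In the epidermis, more keratin and desmosome genes fell than rose. Of 32 tested 10 fell and 2 rose, against 11.75% and 10.22% of all tested genes, with a median of -0.35. The keratin gene krt93 had 4.00, 5.89 and 3.61 scaled TPM at 21 dpa, against 56.0, 51.3 and 57.9 at 4 dpa, a change of -3.37 (SE 0.21, limma adjusted p = 4.77e-07). Its close paralog krt94 had 32.9, 35.7 and 26.1 scaled TPM at 21 dpa, against 268, 247 and 273 at 4 dpa, and fell by 3.03. The basal keratin gene krtt1c19e had 2450, 1210 and 2102 scaled TPM at 21 dpa, against 487, 479 and 488 at 4 dpa, and rose by 1.92. The abundant keratin gene krt4 did not pass, at -0.28. The count of lower members was 5 without 21 dpa replicate 2 and 6 without 4 dpa replicate 1. With the library set as a covariate it was 2, against 159 of all 10234 genes.

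Myelin genes of peripheral nerve rose. Of 14 tested markers of Schwann cells and nerve 5 rose and 1 fell, with a median of 0.44. Across all tested genes 10.22% rose and 11.75% fell. The myelin gene mpz had 3.62, 7.23 and 5.17 scaled TPM at 21 dpa, against 0.822, 0.569 and 1.2 at 4 dpa, a change of 1.74 (SE 0.20, limma adjusted p = 4.14e-05). The myelin genes plp1b, mbpb and mag rose by 1.62, 1.62 and 1.497, and egr2b, the factor that drives myelin genes, by 0.98. On TPM as deposited the calls of mbpb and egr2b were lost, and with the library set as a covariate those of mag and egr2b. Those of mpz and plp1b were kept in every setting that tested them. The neuregulin gene nrg1 fell by 1.04. The summed markers were 150 to 221 scaled TPM at 21 dpa, against 81.0 to 147 at 4 dpa, with elavl3 at 0 in all 6 libraries. The counts were 5 and 1 or 5 and 2 whenever 1 library was left out. With the library set as a covariate 3 genes rose, against 101 of all 10234 genes.

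Summed melanophore and muscle markers stood higher at 21 dpa, and summed vessel, ionocyte and erythrocyte markers lower, without overlap. The counts of called markers below stand against 10.22% higher and 11.75% lower of all tested genes. Of 10 melanophore markers 3 rose, among them mc1r by 1.70 and kita by 1.41, and the summed level was 68.6 to 81.3 scaled TPM at 21 dpa, against 22.4 to 62.2 at 4 dpa. Both calls were lost on TPM as deposited and with the library set as a covariate, and that of kita also on the rescaled TPM. Of 20 iridophore and xanthophore markers 5 rose and 2 fell, but the higher count was 2 without 21 dpa replicate 1, 3 without 21 dpa replicate 2 and 1 without 21 dpa replicate 3 or 4 dpa replicate 3. Of 20 blood vessel markers 5 fell, among them ramp2 by 1.28 and plvapb by 0.86, and the summed level was 98.8 to 117 scaled TPM at 21 dpa, against 141 to 174 at 4 dpa. The calls of ramp2 and plvapb were lost with the library set as a covariate. Of 8 tested ionocyte and mucous cell markers 2 rose and 3 fell, so they did not move together. The ionocyte carbonic anhydrase gene ca2 fell by 2.11, a call lost with the library set as a covariate. The summed ionocyte and mucous cell markers were 86.1 to 94.8 scaled TPM at 21 dpa, against 168 to 215 at 4 dpa. The summed erythrocyte markers were 73.8 to 94.5 scaled TPM at 21 dpa, against 110 to 245 at 4 dpa, with hbae3 at 0 in all 6 libraries. Of 4 tested erythrocyte markers the heme synthesis gene urod was called lower, a call lost without 21 dpa replicate 1, 2 or 3 and without 4 dpa replicate 1 or 2. The summed hepatocyte markers were 1410 to 3020 scaled TPM at 21 dpa, against 688 to 991 at 4 dpa. The retinol-binding protein gene rbp4, which did not pass the test, had 3020, 1412 and 2014 at 21 dpa, against 911, 990 and 686 at 4 dpa. The hepatocyte sum was thus almost wholly the level of rbp4. Neither of 2 tested hepatocyte markers was called by limma, and both were higher at an unadjusted p under 0.05. Muscle markers were scarce, with a summed level of 14.2 to 18.3 scaled TPM at 21 dpa, against 9.69 to 12.2 at 4 dpa, and 4 of 32 at 0 in all 6 libraries.

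Of 4 metabolic lists, fatty acid oxidation had the largest share of called lower genes, but that share shrank when some single libraries were left out. Its median was nearer 0 than those of the tricarboxylic acid cycle and oxidative phosphorylation lists. Of 18 glycolysis genes 1 rose and 2 fell, against 10.22% and 11.75% of all tested genes, with a median of 0.00. The lactate dehydrogenase gene ldhba had 145, 121 and 113 scaled TPM at 21 dpa, against 70.8, 73.1 and 73.8 at 4 dpa, while ldha had 17.3, 14.7 and 16.1 at 21 dpa, against 29.8, 28.8 and 21.5 at 4 dpa. The call of ldha was lost without 21 dpa replicate 2 or 3 and without 4 dpa replicate 1 or 2, and that of ldhba on both TPM scales without median-of-ratios scaling and with the library set as a covariate. Of 24 tricarboxylic acid cycle genes 3 fell, with a median of -0.24, and the 21 dpa libraries lay below the 4 dpa libraries in 8. Of 31 fatty acid oxidation genes 7 fell and 2 rose, with a median of -0.13, and the 21 dpa libraries lay below in 7. Among all tested genes they lay below in 19.18%. The lower count of the fatty acid list was 3 without 21 dpa replicate 2 and 4 without 4 dpa replicate 1 or 2. Of 82 nuclear genes of oxidative phosphorylation 8 fell and 1 rose, with a median of -0.39, but 44 fell with each library rescaled to the TPM total and 31 with weights for library quality. Over all 10234 genes 1699 fell with that rescaling and 1704 with those weights. The lower count was 4 without 21 dpa replicate 2, 5 without 21 dpa replicate 3 or 4 dpa replicate 1 and 3 without 4 dpa replicate 2. Of 26 tested heat shock and stress chaperone genes 7 fell and 2 rose, against 11.75% and 10.22% of all tested genes, with a median of -0.25. Leaving out 1 library left 4 to 8 of them lower. The steroid receptor co-chaperone gene fkbp5 fell by 1.97, a call lost with the library set as a covariate. It had 19.9, 32.6 and 57.1 scaled TPM at 21 dpa, against 133, 107 and 167 at 4 dpa, and a mean of 271 at 0 dpa.

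Growth arrest genes changed both ways. Of 35 tested p53 targets and arrest genes 9 rose and 4 fell, against 10.22% and 11.75% of all tested genes, with a median of 0.30. On TPM as deposited the median was -0.07, beside -0.34 for all genes. The higher count was 5 without 21 dpa replicate 3 or 4 dpa replicate 2, and the lower count 2 without replicate 1 of either time. The cell cycle inhibitor gene cdkn1a had 0.873, 1.08 and 1.79 scaled TPM at 21 dpa, against 9.45, 10.3 and 5.30 at 4 dpa, and fell by 2.03. The apoptosis gene bbc3 had 4.49, 3.33 and 5.34 scaled TPM at 21 dpa, against 0.508, 0.398 and 0.632 at 4 dpa, and rose by 1.82. Both changes stood clear of the spread between libraries.

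The 0 dpa libraries show where both groups of called genes stood before regrowth. Of the 1203 lower genes, 678 (56.4%) had a 0 dpa mean nearer to 21 dpa than to 4 dpa, and of the 1046 higher genes 491 (46.9%) did. Among the lower genes, 184 had a 0 dpa mean above the 4 dpa mean and 238 at or below the 21 dpa mean. Among the higher genes, 142 had a 0 dpa mean below the 4 dpa mean and 141 at or above the 21 dpa mean. The difference was mostly gained by 14 dpa. At 7 dpa a median of 51.0% of the log2 difference between 4 and 21 dpa was reached for lower genes and 42.2% for higher genes, and at 14 dpa 83.6 and 77.3%. These shares are descriptions, since the 4 and 21 dpa values that chose the genes enter them. The 14 and 21 dpa libraries also share a library set that holds no 0 or 4 dpa library. The part of the set in these shares and in the nearness to 0 dpa was not tested.

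**Figure D5:**
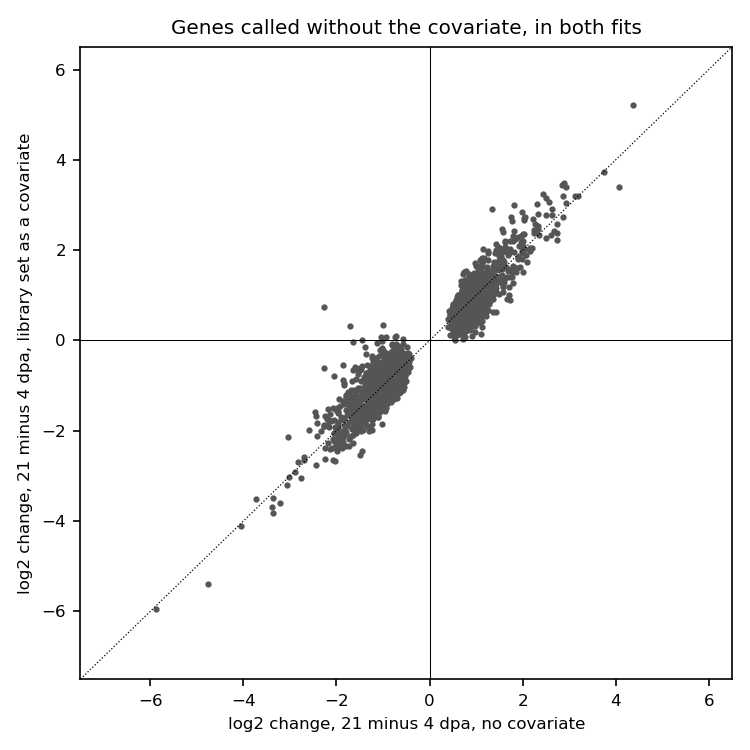
Log2 change, 21 minus 4 dpa, of the 2249 called genes in the fit without a covariate (horizontal axis) and with the library set as a covariate (vertical axis), the dotted line marking equal values. Signs are the same for 2240 genes, while 260 genes in all pass the test with the covariate.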

How the data were processed

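Bulk RNA-seq was measured in 15 fin libraries, 3 pools of 10 fish at each of 5 times. Per the labels' protocols, total RNA was reverse transcribed, amplified by PCR and tagged with Tn5. Trim Galore 0.6.7, cutadapt 3.5, Salmon 1.4.0 and the build danRer11 are named per the submitters' processing notes, and the annotation is not given in the sources used here. The authors deposited TPM values, which carry no read counts, so no counting interval is given. TPM sets each library's total to 1e+06, so an abundant transcript lowers all others.

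The rRNA gene zgc:158463 was dropped, libraries were scaled by median of ratios (size factors 0.579 to 1.49), and log2(scaled TPM + 1) was fitted with limma 3.58.1 in R 4.3.3 over all 15 libraries, with a mean per time, 10 residual degrees of freedom and an intensity trend. Tests are two-sided. P-values measure the spread between pools. The scripts were tested on simulated data. Library sets came from how sharply ratios of low TPM values fell on steps, an index of 0.238 to 0.995 within and 0.127 to 0.200 between sets. Lists are described by counts and medians.

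The comparison, the lists and the tests were chosen with earlier results of these data known. Named genes are the 12 largest rises and 12 largest falls among called genes without overlap, with a mean scaled TPM of at least 10 in the higher group and no clone name, up to 4 called members of each list, and cell type markers. Other genes named were chosen after their values were seen. Alternatives covered scaling (trimmed mean of M values among others), pseudocount, filters, model settings and left-out libraries. Of the 14836 symbols 13811 were found in RefSeq (GRCz12tu), used for names only.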

Additional observations from a re-analysis of the deposited data

How the results depend on the processing

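Of the 2249 genes called, 1046 higher and 1203 lower, the count moved by more than 1.5 times with the library set as a covariate (260 changed, 101 higher, 159 lower), on TPM as deposited (993 changed, 136 higher), with the rRNA gene dropped and libraries rescaled to the TPM total (273 higher), and with a mean scaled TPM of at least 5, where 4828 genes were tested (1160 changed, 477 higher, 683 lower). Leaving out both 4 dpa replicate 3 and 21 dpa replicate 2, the libraries with the largest rRNA shares, an alternative chosen after seeing the data, gave 1490 changed and 651 higher. Leaving out 1 library gave 1528 to 2217 changed, 707 to 973 higher and 821 to 1244 lower. Other scalings, pseudocounts, filters, weights and model settings gave 1765 to 3101 changed. A covariate for the library set rests on the 7 dpa libraries for the tie between sets, so fewer calls there come with wider errors.

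The replicate numbers did not pair the samples. Deviations of same-numbered libraries correlated at 0.242, -0.439 and 0.11 over genes, and 21 dpa replicate 1 correlated best with 4 dpa replicate 2, at 0.531. A replicate block gave 2083 genes changed, 2041 of them shared with the fit without it.

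Of 2749 refits of the 139 called genes named in the text 2538 kept the call, 211 lost it and 0 changed sign. TPM keeps no read counts, and 4 dpa replicate 3 and 21 dpa replicate 2 were shallowest outside the rRNA gene, which limits genes near 1 TPM.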

Other observations

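Several genes outside the lists changed, and they were chosen after their values were seen. The winged-helix transcription factor gene foxq1a had 44.4, 56.5 and 45.1 scaled TPM at 21 dpa, against 6.34, 3.49 and 4.41 at 4 dpa, and rose by 3.13. Its paralog foxq1b had 60.6, 56.5 and 58.8 scaled TPM at 21 dpa, against 16.0, 10.5 and 8.89 at 4 dpa, and rose by 2.26. Both had lower means at 0, 7 and 14 dpa than at 21 dpa, with 1.53, 4.50 and 4.21 for foxq1a and 4.56, 12.8 and 15.5 for foxq1b. The epithelial transcription factor gene foxn1 had 9.42, 14.1 and 10.3 scaled TPM at 21 dpa, against 1.27, 1.37 and 1.66 at 4 dpa, and its means at 0, 7 and 14 dpa were 9.83, 10.7 and 12.2, so 4 dpa was the low time. The Krüppel-like factor gene klf11a rose by 2.498, and sox19a rose by 2.35.

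Some genes for enzymes, carriers and a receptor of arginine, polyamines, folate, amino acids and prostaglandins changed as well. They were picked singly, with no list or share of such genes behind them. The arginase gene arg2 had 45.02, 43.3 and 77.7 scaled TPM at 21 dpa, against 11.71, 10.196 and 9.44 at 4 dpa, and rose by 2.25. The cyclooxygenase gene ptgs2a rose by 1.96, the prostaglandin D synthase gene ptgdsb.1 by 2.26 and the prostaglandin E receptor gene ptger2b by 1.58. The polyamine acetyltransferase gene sat1a.1 rose by 1.85, and the spermine oxidase gene smox fell by 1.98. The cationic amino acid carrier gene slc7a3 had 5.11, 6.94 and 6.13 scaled TPM at 21 dpa, against 31.0, 25.3 and 35.3 at 4 dpa, and means at 0, 7 and 14 dpa of 53.3, 39.8 and 13.5. The amino acid carrier subunit gene slc3a2b fell by 2.19, the glycine decarboxylase gene gldc by 1.96 and the dihydrofolate reductase gene dhfr by 2.45. Like slc7a3, slc3a2b had a high 0 dpa mean, at 83.6, above its 4 dpa libraries at 57.4, 57.1 and 41.1 scaled TPM. The calls of ptgdsb.1, ptger2b, sat1a.1, smox, slc3a2b, gldc and dhfr were lost with the library set as a covariate. Those of arg2, ptgs2a and slc7a3 were kept.

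The RNA component of RNase P, rpph1, a transcript without a poly(A) tail, had 273, 578 and 94.8 scaled TPM at 21 dpa, against 34.5, 28.5 and 48.7 at 4 dpa, and rose by 2.73. Its highest value was in 21 dpa replicate 2, the 21 dpa library with the largest rRNA share, and the part of that share was not tested. The call was lost with the library set as a covariate. Among genes with clone names, si:dkey-33c14.3 rose by 3.75 and zgc:194627 fell by 3.39.

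The cytochrome P450 genes changed in both directions. Of 21 tested 7 rose and 6 fell, with a median of 0.31, against 10.22 and 11.75% of all tested genes. The higher count was 4 without 4 dpa replicate 2, and the lower count 3 without 4 dpa replicate 1. With the library set as a covariate 2 were higher and 0 lower by limma, and 5 were higher and 2 lower at an unadjusted p under 0.05. The xenobiotic-responsive gene cyp1a had 23.5, 21.4 and 27.32 scaled TPM at 21 dpa, against 3.81, 4.46 and 6.49 at 4 dpa, and rose by 2.1. The sterol hydroxylase-related genes cyp8b3 and cyp8b2, which are close paralogs, fell by 2.26 and 1.85. Both calls were lost with the library set as a covariate, where the changes were -0.60 and -0.55. Means of cyp8b3 at 0, 7 and 14 dpa were 73.3, 127 and 83.6, all above its 21 and 4 dpa values.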
